A study of Mus musculus with 20 samples.

Results

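The mucus layer of the colon is made by goblet cells, and 10 genes of their mucus and secretory programme were followed through mouse colonoid cultures of 2 genotypes. The genes were Muc2, Fcgbp, Zg16, Clca1, Tff3, Spink4, Agr2, Atoh1, Spdef and Creb3l1, taken by symbol from a table of 35240 gene symbols. The tests took genes whose mean reached 1, which 8 of the 10 did, while Clca1 and Atoh1 did not. Colonoids are epithelial structures grown in a gel matrix from crypts of the distal mouse colon. WT (C57BL/6) colonoids were compared with Tnfr2-/- colonoids, which came from B6.129S2-Tnfrsf1b tm1Mwm/J mice with the receptor deleted in every cell of the body. Mice were 8 weeks old, males and females, according to the culture methods. Cultures of both genotypes were passaged 5 times, filtered through a mesh, seeded and collected on days 1, 2, 3, 5 and 7 post passage. They also contained fibroblasts from the mucosa. There were 20 libraries from 2 mice per genotype, and the cultures of the 2 mice are called M1 and M2. Each culture gave 1 library per day, so the 5 libraries of a culture are repeated samples of 1 mouse. Days 1 to 3 are called early and days 5 and 7 late.

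Goblet cells arise from secretory progenitors in which the transcription factor ATOH1 is switched on, and SPDEF then drives their maturation. The gel-forming mucin MUC2 is folded with the help of the disulfide isomerase AGR2, packed into granules and released with partner proteins such as FCGBP, ZG16, CLCA1 and TFF3. In the colon this mucus keeps bacteria away from the epithelium, and goblet cells are renewed throughout life as crypt cells differentiate. In a bulk library, fewer goblet cells and less RNA per goblet cell cannot be told apart.

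The promoters of 5 members were held in the RefSeq promoter table for GRCm38.p6, and they are shown because most of these genes followed similar courses over the days, as described below. The other members are Tff3, Clca1, Zg16, Spink4 and Creb3l1. Each sequence is the 250 bases before the RefSeq start site, read 5′ to 3′ on the strand of the gene, with matches to a searched motif in capitals.
Muc2, chr7:141690090-141690339, plus strand: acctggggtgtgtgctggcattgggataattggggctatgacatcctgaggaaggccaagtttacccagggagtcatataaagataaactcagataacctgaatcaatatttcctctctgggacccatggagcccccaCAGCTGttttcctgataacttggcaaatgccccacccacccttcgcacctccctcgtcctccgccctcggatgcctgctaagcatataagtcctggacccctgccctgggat
Fcgbp, chr7:28070986-28071235, plus strand: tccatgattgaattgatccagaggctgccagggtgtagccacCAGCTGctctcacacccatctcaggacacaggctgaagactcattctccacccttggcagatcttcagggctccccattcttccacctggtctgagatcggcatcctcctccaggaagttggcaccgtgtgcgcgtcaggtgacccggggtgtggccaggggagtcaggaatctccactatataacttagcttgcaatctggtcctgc
Spdef, chr17:27728952-27729201, minus strand: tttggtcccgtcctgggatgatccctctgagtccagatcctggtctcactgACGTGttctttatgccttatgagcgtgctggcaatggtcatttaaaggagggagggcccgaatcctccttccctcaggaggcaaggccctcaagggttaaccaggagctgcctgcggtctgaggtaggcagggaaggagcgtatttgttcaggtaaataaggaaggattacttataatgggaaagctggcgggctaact
Atoh1, chr6:64728875-64729124, plus strand: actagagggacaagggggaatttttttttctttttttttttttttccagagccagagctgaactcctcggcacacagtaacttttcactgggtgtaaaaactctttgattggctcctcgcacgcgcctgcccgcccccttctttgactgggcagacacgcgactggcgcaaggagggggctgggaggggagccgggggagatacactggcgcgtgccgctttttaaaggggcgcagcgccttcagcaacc
Agr2, chr12:35992675-35992924, plus strand: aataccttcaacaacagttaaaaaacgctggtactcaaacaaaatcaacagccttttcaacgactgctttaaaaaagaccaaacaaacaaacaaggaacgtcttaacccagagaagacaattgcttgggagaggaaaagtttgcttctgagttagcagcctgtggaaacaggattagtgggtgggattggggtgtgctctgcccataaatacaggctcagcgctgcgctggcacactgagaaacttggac

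Searched on both strands were CAGCTG, an E-box of the kind bound by ATOH1, CCGGAT, an ETS-type element preferred by SPDEF, CCACG, part of the endoplasmic reticulum stress element, and ACGTG, the core of elements bound by the CREB3 family. The palindrome CAGCTG was present in the promoters of Muc2, 112 bases before the start, and Fcgbp, 208 bases before it. This motif occurs in 13% of all 32851 promoters in the table. ACGTG was found once, in the Spdef promoter 199 bases before the start, and occurs in 16.6% of all promoters. CCGGAT (4.94% of all promoters) and CCACG (28.3%) were in none of the 5 windows. These matches describe letters and are not evidence of binding.

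Values, here called normalised expression, are TPM (a length-scaled measure of transcript abundance) corrected by a library size factor and added up over the transcripts of a gene. Because of that length scaling, levels of different genes can be set side by side. Library sums lay between 900655 and 1111080, and a value of 0 is reported as listed at 0. The paper states an approximate read depth per sample, with no exact depth for each library. Tnfrsf1b, the deleted gene, was 15.3 ± 3.09 in WT and 5.80 ± 2.84 in Tnfr2-/- cultures (SD, n = 10 libraries each). It was lower but not absent, and the genotypes did not overlap on any single day. In the Tnfr2-/- cultures Tnfrsf1b was 3.85 ± 1.02 early and 8.74 ± 1.82 late (SD, n = 6 and 4), against 14.9 ± 2.67 and 15.9 ± 3.99 in WT. Tests were made with limma on log2(value + 1) across 13539 genes, and a gene is called when its Benjamini-Hochberg adjusted p is under 0.05. Tnfrsf1b was called lower at the early days (-1.72, SE 0.162, adjusted p 0.000116), at the late days (-0.79, SE 0.198, adjusted p 0.0323) and on days 1 and 2, but not on days 3, 5 and 7 (adjusted p 0.107, 0.211 and 0.203). From early to late days it was called higher in Tnfr2-/- cultures (1.02, SE 0.181, adjusted p 0.00191). Its late less its early genotype difference was 0.94 (SE 0.256, adjusted p 0.182), which was not called. P-values over several days treat the libraries of a mouse as separate and so rest on only 2 mice per genotype. An exact permutation of 2 mice against 2 cannot give a two-sided p below 0.333.

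Members differed widely in level. Tff3 had the highest mean over the 20 libraries (117), followed by Spink4 (102), Agr2 (93.2), Muc2 (40.7), Fcgbp (34.2), Creb3l1 (19.6), Zg16 (12.6) and Spdef (2.38). Atoh1 (0.584) and Clca1 (0.456) came last. The order was not fixed, since Tff3, Spink4, Agr2 and Creb3l1 were each the highest of the 10 members in some libraries, Creb3l1 only on days 1 and 2. The cultures held transcripts of all 10 members, with Clca1, one of the abundant mucus proteins of the colon in vivo, at or under 2.49 in every library and listed at 0 in 7. The 10 members together made up 0.227% of the library total in WT M1 on day 5 and 0.00311% in WT M2 on day 2, the highest and lowest of the 20 libraries.

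**Figure D1:**
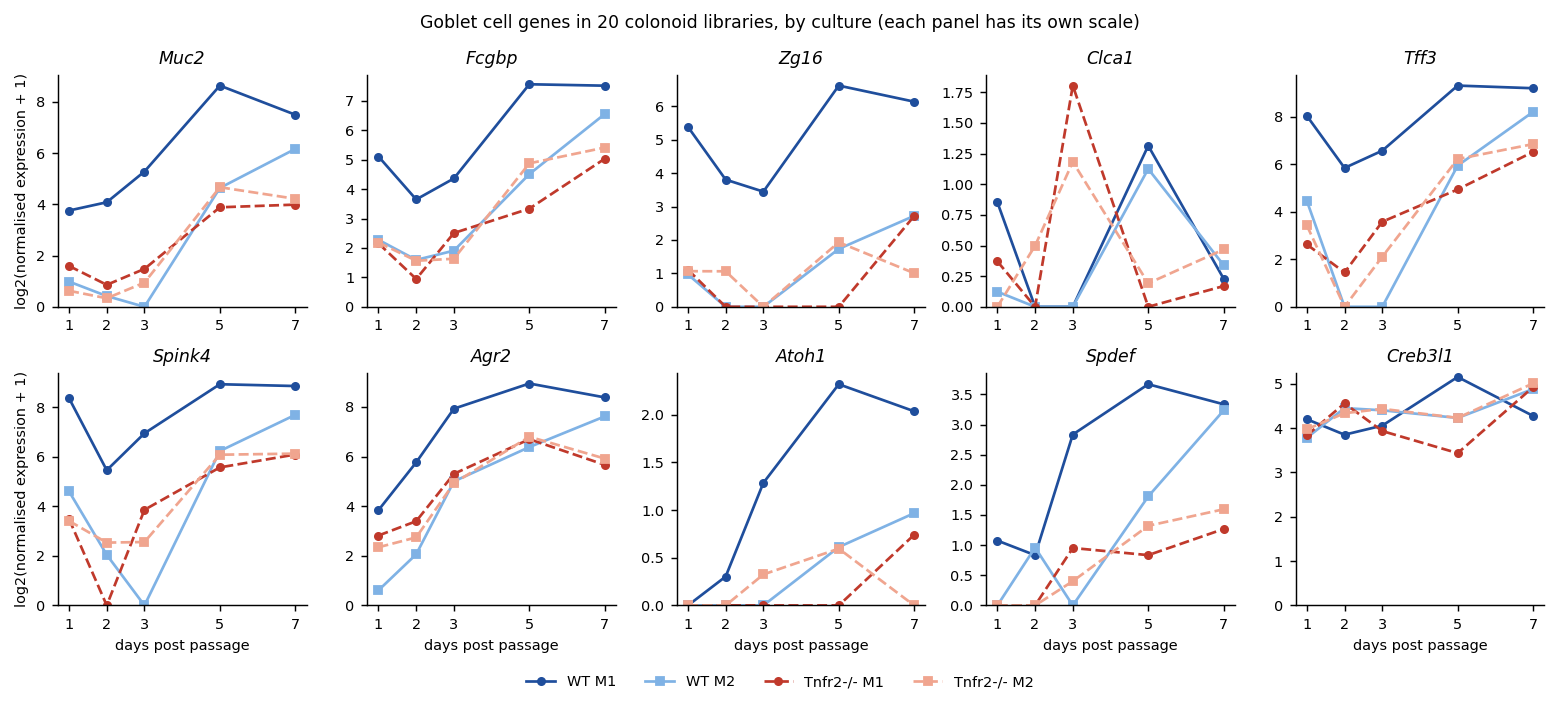
Normalised expression of the 10 members on a log2(value + 1) scale (vertical axis, own range in each panel) against days post passage, with 1 line per culture and 1 point per library (WT solid and blue, Tnfr2-/- dashed and red). Most members are higher after day 3 in all 4 cultures, WT M1 runs mostly above the other 3 cultures, and Creb3l1 stays between 9.81 and 34.5 throughout.

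The mucus components Muc2 and Fcgbp were higher late in every culture, from very different starting levels. Muc2, the mucin that forms the gel, was 12.5, 15.9, 37.8, 396 and 179 on days 1, 2, 3, 5 and 7 in WT M1. In WT M2 the same days gave 0.979, 0.338, 0, 23.9 and 70.5. In Tnfr2-/- M1 they gave 2.02, 0.811, 1.79, 13.8 and 14.8, and in Tnfr2-/- M2 0.542, 0.259, 0.924, 24.4 and 17.6. All 8 late libraries lay above the early libraries of their own culture, and the 3 early libraries of WT M1 lay above all 9 other early libraries. Muc2 is annotated under 2 identifiers, the second an alternate locus with identical values, and both are summed here.

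Fcgbp encodes a large protein bound into the mucin network. It was 33.5, 11.5, 19.6, 188 and 182 in WT M1 in order of day. It was 3.84, 2.02, 2.75, 21.8 and 92.8 in WT M2. The Tnfr2-/- cultures gave 3.46, 0.927, 4.68, 9.09 and 31.7 in M1 and 3.55, 1.96, 2.10, 28.3 and 41.5 in M2. On day 5, WT M2 lay between the 2 Tnfr2-/- cultures, and on day 7 it lay above both.

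Zg16 encodes a lectin of the mucus that binds bacterial cell walls. It was almost restricted to 1 culture, with 40.8, 13.0, 9.89, 97.3 and 69.4 in WT M1. WT M2 gave 0.957, 0, 0, 2.32 and 5.59. Tnfr2-/- M1 gave 1.16, 0, 0, 0 and 5.58, and Tnfr2-/- M2 gave 1.09, 1.09, 0, 2.81 and 1.01. The lowest WT M1 library (9.89) was above the highest of the 15 other libraries (5.59). Clca1, a metalloprotease of the mucus, was under 1 in 16 of 20 libraries, and its highest value, 2.49, was in Tnfr2-/- M1 on day 3.

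The small secreted peptides showed a dip after passage. Tff3, the trefoil peptide of goblet cells, was 261, 56.4, 93.9, 632 and 586 in WT M1 and 21.0, 0, 0, 60.4 and 293 in WT M2. It was 5.16, 1.72, 10.9, 29.6 and 90.7 in Tnfr2-/- M1 and 9.75, 0, 3.30, 73.4 and 114 in Tnfr2-/- M2. Each culture had more Tff3 on day 1 than on day 2. Spink4, a Kazal-type peptide secreted by goblet cells, was 329, 43.0, 123, 487 and 463 in WT M1 and 23.3, 3.13, 0, 74.3 and 206 in WT M2. It was 10.2, 0, 13.5, 46.6 and 67.3 in Tnfr2-/- M1 and 9.65, 4.80, 4.90, 66.9 and 69.0 in Tnfr2-/- M2. All 4 late Tnfr2-/- libraries of Spink4 lay below all 4 late WT libraries, by a margin of 69.0 against 74.3.

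Of the 8 tested members, 4 (Tff3, Fcgbp, Zg16 and Spink4) were lower on day 2 than on day 1 in all 4 cultures, a pattern held by 11.7% of the 13539 genes. In WT M1 the day 1 level was 4.64 times the day 2 level for Tff3 and 7.66 times for Spink4. Agr2 did the opposite and was higher on day 2 than on day 1 in all 4 cultures.

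Agr2, the disulfide isomerase that mucin folding depends on, increased from day 1 on. It was 13.3, 53.4, 243, 492 and 333 in WT M1 and 0.527, 3.17, 31.0, 82.4 and 196 in WT M2. It was 6.05, 9.52, 38.5, 103 and 49.8 in Tnfr2-/- M1 and 4.08, 5.69, 29.5, 110.3 and 59.5 in Tnfr2-/- M2. Agr2 was higher at each step from day 1 to day 5 in all 4 cultures, and then only WT M2 gained more by day 7. On day 1 the WT M2 library was the lowest of the 4, below both Tnfr2-/- libraries.

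The transcription factors Spdef and Atoh1 were scarce. Spdef, which drives goblet cell maturation, was 1.11, 0.782, 6.13, 11.7 and 9.10 in WT M1 and 0, 0.945, 0, 2.50 and 8.41 in WT M2. It was 0, 0, 0.935, 0.783 and 1.41 in Tnfr2-/- M1 and 0, 0, 0.322, 1.5 and 2.02 in Tnfr2-/- M2. No Tnfr2-/- library passed 2.02, and all 4 late Tnfr2-/- libraries were below the lowest late WT library (2.50). Atoh1, the factor that starts the secretory fate, was 0, 0.233, 1.44, 3.99 and 3.10 in WT M1 and 0, 0, 0, 0.528 and 0.955 in WT M2. In the Tnfr2-/- cultures Atoh1 reached at most 0.671, and it was listed at 0 in 7 of their 10 libraries. The files used here hold no read counts by which to judge values this low.

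Creb3l1, an endoplasmic reticulum stress factor that is expressed in goblet cells and also in collagen-secreting cells, did not follow the other members. It lay between 13.4 and 34.5 in WT M1, 12.8 and 28.4 in WT M2, 9.81 and 29.3 in Tnfr2-/- M1 and 14.7 and 31.2 in Tnfr2-/- M2. Across the 20 libraries, which share cultures and days, the Pearson r of log2(value + 1) with Muc2 was 0.34 for Creb3l1. For Fcgbp, Spdef, Tff3, Spink4, Agr2, Atoh1 and Zg16 it was 0.95, 0.92, 0.92, 0.90, 0.86, 0.85 and 0.81, and for Clca1 it was 0.16.

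Late days were compared with early days in each genotype to follow goblet cell differentiation as the cultures matured. In WT cultures 5 of 8 members were called higher late, against 11.6% of all genes called higher. These were Muc2 (log2 change 4.31, SE 1.04, limma adjusted p 0.0112), Fcgbp (3.39, SE 0.711, adjusted p 0.00543), Agr2 (3.63, SE 0.796, adjusted p 0.0068), Spdef (2.06, SE 0.491, adjusted p 0.0109) and Tff3 (4.01, SE 1.30, adjusted p 0.044). Spink4 (3.36, SE 1.19), Zg16 (2.04, SE 1.18) and Creb3l1 (0.51, SE 0.227) were not called. The median change of the 8 was 3.37 on the log2 scale, against 0.02 over all genes. With the mouse as a fixed block, which removes the level of each culture, 7 were called (14.1% of all genes), Spink4 (limma adjusted p 0.00434) and Zg16 (0.00557) among them. With the mouse as a correlated block 6 were called (13.4% of all genes), and Zg16 was not among them (adjusted p 0.155). Over 20 fits that each left out 1 library, Fcgbp and Agr2 were called in all 20, Spdef in 19, Muc2 in 18 and Tff3 in 4 (adjusted p up to 0.179). Without the day 5 library of WT M1 the count fell to 2, and without its day 7 library to 3.

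In Tnfr2-/- cultures 4 of 8 members were called higher late, against 10.4% of all genes. They were Fcgbp (2.83, SE 0.711, limma adjusted p 0.0131), Agr2 (2.68, SE 0.796, adjusted p 0.0295), Muc2 (3.22, SE 1.04, adjusted p 0.0422) and Tff3 (3.93, SE 1.30, adjusted p 0.0471). Spdef (1.03, SE 0.491, adjusted p 0.165), Spink4 (3.33, SE 1.19, adjusted p 0.0639), Zg16 (0.87, SE 1.18) and Creb3l1 (0.22, SE 0.227) were not. The genotypes share 1 estimate of the spread, so these SEs equal those in WT. Without the WT M1 libraries the SE was 0.234 for Spdef and 0.48 for Spink4, at the same estimates. With the mouse as a fixed block Spink4 was called as well (limma adjusted p 0.00443, 13.3% of all genes called higher), and so it was with a correlated block (adjusted p 0.0318, 12.1%). Leaving out the day 5 library of Tnfr2-/- M2 left 0 members called, and leaving out any other Tnfr2-/- library left 1 or 2.

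**Figure D2:**
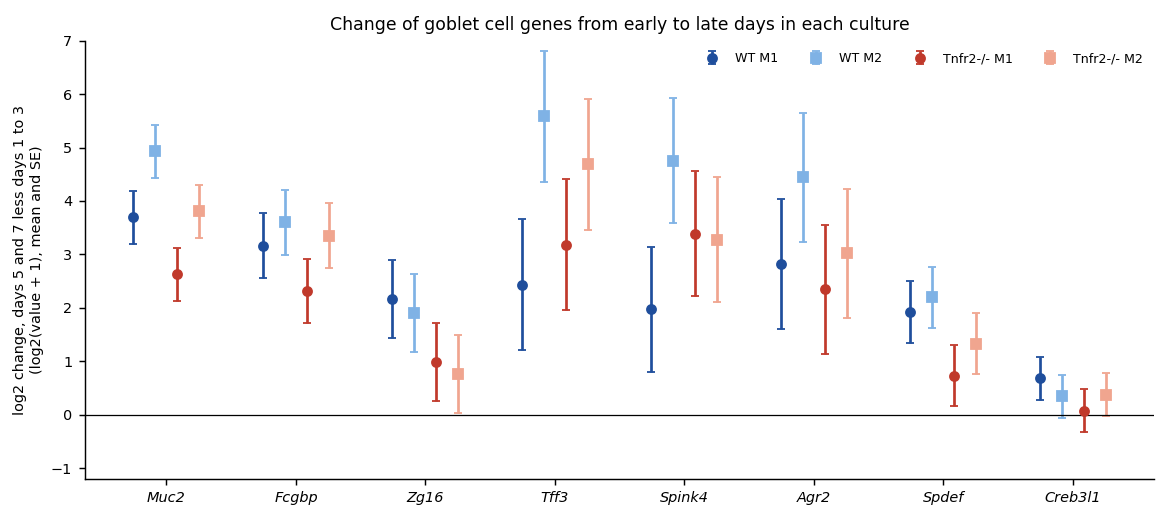
Change from the early to the late days in each culture on the log2(value + 1) scale (vertical axis, estimate ± SE from the fit with a mean for each culture and phase) for the 8 tested members. All 32 estimates are above 0, with Muc2 between 2.62 and 4.93, Tff3 between 2.44 and 5.59 and Creb3l1 between 0.07 and 0.68.

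By culture, with the days of a phase as the spread, the late level was above the early level for all 8 members in each of the 4 cultures. Muc2 and Fcgbp were called in all 4. The change of Muc2 was 3.69 in WT M1, 4.93 in WT M2, 2.62 in Tnfr2-/- M1 and 3.81 in Tnfr2-/- M2 (SE 0.497 each). In WT M1 Spdef was called as well, 3 members in all against 6.51% of genes called higher. Tff3 was called as well in WT M2 (3 members, 0.901% of genes) and in Tnfr2-/- M2 (3 members, 1.99% of genes), and in Tnfr2-/- M1 there were 2 (2.67% of genes). The change in WT M1 less that in WT M2 was called for 0 members (0.00739% of genes in either direction, 0 members at an unadjusted p under 0.05), with Tff3 at -3.15 (SE 1.73) and Muc2 at -1.24 (SE 0.703).

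After day 5 the 2 WT cultures went in opposite directions. All 8 tested members were lower on day 7 than on day 5 in WT M1 and higher in WT M2, which 24.4% of all genes also were. For Muc2 the day 7 level was 0.454 times the day 5 level in WT M1 and 2.95 times in WT M2. Fcgbp changed least in WT M1, at 0.967 times, and gained most in WT M2 after Tff3, at 4.26 times against 4.86. In Tnfr2-/- cultures the ratio for Muc2 was 1.08 in M1 and 0.721 in M2, and for Agr2 it was 0.484 and 0.540. Zg16 rose from a value listed at 0 in M1 and was 0.359 times in M2. Tff3 (3.06 and 1.55), Fcgbp (3.49 and 1.47), Creb3l1 (2.99 and 1.76), Spdef (1.80 and 1.35) and Spink4 (1.44 and 1.03) rose in both.

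The 2 WT cultures were compared to measure the spread between mice of 1 genotype. WT M1 was above WT M2 on all 5 days for 6 of the 8 tested members, a pattern of 8.84% of all genes. The exceptions were Spdef, which was lower in WT M1 on day 2, and Creb3l1. With day in the model, 4 of 8 members were called higher in WT M1, against 0.746% of all genes. They were Zg16 (log2 difference 3.99, SE 0.259, limma adjusted p 0.00966), Muc2 (3.41, SE 0.505, adjusted p 0.0331), Agr2 (2.64, SE 0.387, adjusted p 0.0327) and Fcgbp (2.27, SE 0.296, adjusted p 0.0234). Tff3 (4.07, SE 0.747, adjusted p 0.0551), Spink4 (3.60, SE 0.717, adjusted p 0.0643) and Spdef (1.15, SE 0.453, adjusted p 0.232) were not called, and Creb3l1 differed by -0.04 (SE 0.254). This compares 2 cultures over 5 days and not groups of mice.

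Between the Tnfr2-/- cultures 0 of 8 members were called (0.0222% of all genes), with 0 at an unadjusted p under 0.05. Their differences lay between -0.34 (Spink4 and Fcgbp) and 0.23 (Agr2), with SEs between 0.155 and 0.502. Averaged over the late days, the level in WT M1 was 21.1 times that in WT M2 for Zg16, 6.09 times for Muc2, 3.44 times for Tff3, 3.39 times for Spink4, 3.23 times for Fcgbp, 2.97 times for Agr2, 1.91 times for Spdef and 1.15 times for Creb3l1. Leaving out the library of WT M1 on day 3, or of either WT culture on day 5, left 0 called. Leaving out any library of day 1 or 2, or WT M2 on day 3, left 1, and leaving out either library of day 7 gave 5. With day in the model, leaving out 1 library takes that whole day out of the estimated difference. Either library of a day thus gave the same estimates, also on day 3, where the counts differed.

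The genotypes were compared to ask whether loss of TNFR2 lowers goblet cell transcripts. Over all days 2 of 8 members were called lower in Tnfr2-/- cultures, Fcgbp (log2 difference -1.54, SE 0.438, limma adjusted p 0.0402) and Spdef (-1.14, SE 0.324, adjusted p 0.0402), against 3.09% of all genes called lower. Fcgbp was 12.7 ± 15.1 in Tnfr2-/- and 55.8 ± 73.1 in WT libraries, and Spdef was 0.697 ± 0.749 and 4.07 ± 4.37 (SD, n = 10 libraries each, over all days). Testing required a mean of at least 1 over the 20 libraries, which Spdef reached only through its WT libraries, so its call is a description and the count rests on Fcgbp. The same limit holds for Spdef in the genotype counts that follow. Muc2 (-1.89, SE 0.644, adjusted p 0.0858), Zg16 (-2.19, SE 0.735, adjusted p 0.0797), Spink4 (-1.94, SE 0.755, adjusted p 0.134), Tff3 (-1.99, SE 0.817, adjusted p 0.158) and Agr2 (-0.99, SE 0.523, adjusted p 0.276) were not called. Creb3l1 was at -0.06 (SE 0.174). All 8 estimates were below 0, with a median of -1.71 against -0.03 over all genes.

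Neither call held once the libraries of a mouse were linked. With the mouse as a correlated block the adjusted p was 0.0655 for Fcgbp and 0.0816 for Spdef, and on means of 2 mice against 2 it was 0.516 and 0.443. Without the WT M2 libraries 7 members were called lower (6.73% of all genes), with Muc2 at -3.59 (SE 0.250), Tff3 at -4.02 (SE 0.399) and Zg16 at -4.19 (SE 0.406). Spdef was among the 7, although it was tested only because of its WT values. Without the WT M1 libraries 0 were called (1.4% of all genes lower) and 0 had an unadjusted p under 0.05, with Muc2 at -0.18 (SE 0.361), Tff3 at 0.05 (SE 0.545) and Agr2 at 0.33 (SE 0.376).

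At the late days 0 of 8 members were called in either direction (2.64% of all genes called lower), with 4 at an unadjusted p under 0.05 by limma, as were 22.9% of all genes. Those 4 were Spdef (-1.76, SE 0.538, adjusted p 0.0717), which was tested only because of its WT values, Fcgbp (-1.87, SE 0.779, adjusted p 0.173), Muc2 (-2.54, SE 1.13, adjusted p 0.201) and Zg16 (-2.89, SE 1.29, adjusted p 0.203). The median over the 8 was -1.92, against -0.05 over all genes. As linear means of 4 late libraries, WT over Tnfr2-/- was 9.49 for Muc2, 18.6 for Zg16, 5.56 for Spdef, 5.11 for Tff3, 4.93 for Spink4, 4.38 for Fcgbp, 3.42 for Agr2 and 1.13 for Creb3l1. These means were carried by WT M1, and from WT M2 alone the ratio was 2.68 for Muc2, 3.82 for Spdef, 2.30 for Tff3, 2.25 for Spink4, 2.07 for Fcgbp, 1.72 for Agr2 and 1.69 for Zg16. Muc2 was 167 ± 166 in WT and 17.6 ± 4.77 in Tnfr2-/- late libraries (SD, n = 4 each), so the WT spread was as large as its mean.

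**Figure D3:**
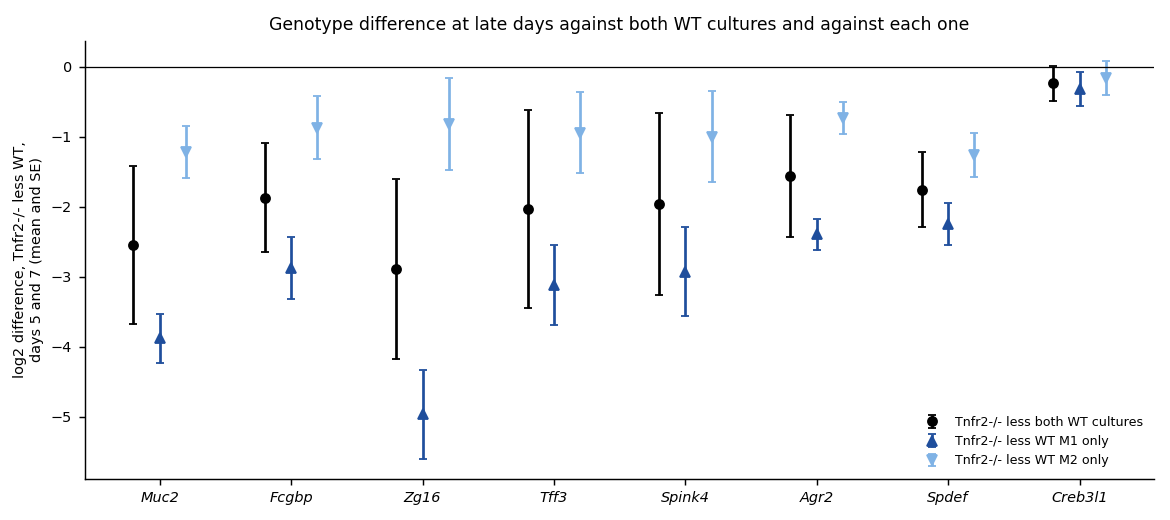
Difference between Tnfr2-/- and WT at the late days on the log2(value + 1) scale (vertical axis, estimate ± SE) for the 8 tested members, against both WT cultures (circles), against WT M1 alone (upward triangles) and against WT M2 alone (downward triangles). The estimates against WT M1 lie further below 0 than those against WT M2 for every member, as for Muc2 at -3.88 and -1.21.

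Against each WT culture alone, the late difference kept its sign for all 8 members and changed in size. Against WT M1, 7 members were called lower, with Zg16 at -4.97 (SE 0.636), Muc2 at -3.88 (SE 0.351), Tff3 at -3.12 (SE 0.570), Spink4 at -2.92 (SE 0.639), Fcgbp at -2.88 (SE 0.437), Agr2 at -2.39 (SE 0.223) and Spdef at -2.25 (SE 0.296), where 7.88% of all genes were called lower. Against WT M2, 0 were called (1.48% of all genes), 3 having an unadjusted p under 0.05 by limma, as had 2693 of the 13539 genes. These were Spdef at -1.27 (SE 0.314, adjusted p 0.067), Muc2 at -1.21 (SE 0.371, adjusted p 0.119) and Agr2 at -0.73 (SE 0.231, adjusted p 0.13). In these fits a single WT mouse stands for its genotype. Spdef is in both counts, although it was tested only because of its WT values.

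The order of the libraries changed between days 5 and 7. Spdef was tested only because of its WT values, so its place in the counts below is a description. On day 5 both Tnfr2-/- libraries were below both WT libraries for 2 of 8 members, Spdef and Spink4 (24.8% of all genes), and on day 7 for 7 of 8, all but Creb3l1 (23.3% of all genes). Over the late days together, all 4 Tnfr2-/- libraries were below all 4 WT libraries for Spdef and Spink4, a pattern of 6.07% of all genes, and over the early days together for 0 of 8 (0.702%). Day by day, the early counts were 3 of 8 on day 1 (17.9% of all genes), 2 of 8 on day 2 (19%) and 0 of 8 on day 3 (20.2%). On day 7 WT M2 lay between the Tnfr2-/- libraries and WT M1 for the same 7 members, a pattern of 13.6% of all genes, and on day 5 for 2 (15.9%). For the day 7 order Muc2 gave 179 and 70.5 in WT against 14.8 and 17.6, and Agr2 gave 333 and 196 against 49.8 and 59.5. No member was called on a single day, with 2 at an unadjusted p under 0.05 on day 5 (Spdef and Creb3l1) and 1 on day 7 (Spdef). On those days 16% and 13.9% of all genes were at that p, and 0.436% and 0.199% were called lower. On days 1, 2 and 3 there were 0 at that p (6.05%, 7.43% and 8.69% of all genes), and 0.0222%, 0.0517% and 0.0443% of all genes were called lower.

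At the early days 0 members were called (0.428% of all genes called lower), with 0 at an unadjusted p under 0.05 by limma (12.9% of all genes). Fcgbp was at -1.32 (SE 0.636), Muc2 at -1.45 (SE 0.926) and Creb3l1 at 0.05 (SE 0.203). Against WT M1 alone 7 members were called lower (1.79% of all genes), with Muc2 at -3.40 (SE 0.287) and Agr2 at -2.26 (SE 0.182). Against WT M2 alone 5 of 8 estimates were above 0, and Agr2 was called higher in Tnfr2-/- cultures (1.03, SE 0.188, limma adjusted p 0.0454, 0.835% of all genes called higher). The other 4 above 0 were Tff3 (0.71, SE 0.471), Muc2 (0.50, SE 0.303), Spink4 (0.43, SE 0.526) and Zg16 (0.22, SE 0.538), none of them called. The early difference thus had opposite signs against the 2 WT cultures for these 5 members. Spdef was among the 7 called against WT M1 alone, although it was tested only because of its WT values.

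The late difference less the early difference was called for 0 members (0.0295% of all genes lower), again with 0 at an unadjusted p under 0.05. Muc2 gave -1.10 (SE 1.46), Spdef -1.03 (SE 0.695), Tff3 -0.08 (SE 1.84) and Spink4 -0.03 (SE 1.68). These SEs come from the fit that ignores the mouse, although late less early is a contrast within each mouse. With means per mouse, 2 against 2, 0 members and 0 of all genes were called by limma (1528 genes at an unadjusted p under 0.05). In that fit 2 members had an unadjusted p under 0.05, Zg16 (-1.16, SE 0.214, adjusted p 0.303) and Spdef (-1.03, SE 0.282, adjusted p 0.352), and Muc2 had an SE of 0.597 (adjusted p 0.547).

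Other genes of goblet cell biology were taken from 4 lists that hold 77 genes, of which 62 were tested. From early to late days in WT, 10 of 16 tested mucus and granule genes were called higher and 0 lower, where 11.6% of all genes were called higher and 8.52% lower. So were 11 of 18 mucin glycosylation genes (2 lower), 7 of 13 secretory fate genes (0 lower) and 2 of 15 secretory pathway genes (3 lower). In Tnfr2-/- cultures the counts were 5 (0 lower), 5 (1 lower), 6 (0 lower) and 1 (0 lower), where 10.4% of all genes were called higher and 9.93% lower. Hspa5, a chaperone of the endoplasmic reticulum, fell by 0.52 in WT (SE 0.124, limma adjusted p 0.0104) and Hsp90b1 was at -0.44 (adjusted p 0.0638). The other 4 secretory pathway genes called in WT, named after their values were seen, were Ern2 (1.68, adjusted p 0.0384) and Creb3l4 (1.44, adjusted p 0.00688), which rose, and Pdia6 (-0.47, adjusted p 0.0145) and Sec24d (-0.62, adjusted p 0.0158), which fell. Tspan1, a tetraspanin, rose by 1.42 in WT and 1.11 in Tnfr2-/- cultures, and Hes1, a Notch target, by 0.54 and 0.49. Elf3, an epithelial factor, rose by 1.03 and 1.23.

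For the genotype at the late days 3 of the 62 were called higher and 3 lower, against 3.8% and 2.64% of all genes. Sytl2, which docks secretory granules, was 47.3 to 60.6 in the 4 WT and 26.7 to 41.7 in the 4 Tnfr2-/- late libraries (-0.80, SE 0.178, limma adjusted p 0.0201). Fut2, which fucosylates mucin glycans, was 18.3 to 32.1 and 10.5 to 23.2 (-0.89, SE 0.194, adjusted p 0.0175), and Chst4, a sulfotransferase, was 6.12 to 7.11 and 1.52 to 2.71 (-1.36, SE 0.375, adjusted p 0.0481). For these 3 genes WT M1 less WT M2 was 0.06, 0.14 and 0.26 over the 5 days, and none was called. Higher in Tnfr2-/- cultures were the transmembrane mucin Muc1 (1.35, SE 0.350, adjusted p 0.0362), the sialyltransferase St3gal1 (1.16, SE 0.248, adjusted p 0.0163) and the progenitor factor Sox4 (0.71, SE 0.178, adjusted p 0.031). Vamp8 (0.19, SE 0.180), B3gnt3 (-0.15, SE 0.148) and Galnt3 (0.40, SE 0.136) were not called. With means per mouse, 2 mice against 2, none of the 6 calls held (limma adjusted p 0.223 to 0.337, all 6 at an unadjusted p under 0.05), and 0 of the 13539 genes were called, 1859 being at that unadjusted p. With the mouse as a correlated block 5 of the 6 were called, all but Chst4 (limma adjusted p 0.0539), where 5.49% of all genes were called in either direction. Against WT M2 alone 1 of the 6 was called (Sox4), where 4.43% of all genes were called in either direction. Against WT M1 alone 4 were, where 16.1% of all genes were called. The difference of St3gal1 was 0.63 (SE 0.145) against WT M2 alone and 1.70 (SE 0.148) against WT M1 alone.

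The genes whose log2(value + 1) followed Muc2 most closely over the 20 libraries were Muc3 (Pearson r 0.98), Abcb1a (0.97), Cdx1, Cdhr5 and Myo1a (0.95 each), Plcl2 (0.95), Reg4 (0.94) and Nr1i2 (0.94). Among members, Fcgbp ranked 4 of all tested genes, Spdef 34, Tff3 36, Spink4 55, Agr2 144, Zg16 263 and Creb3l1 3316. Muc3, a transmembrane mucin of the brush border, had late means of 503 in WT M1, 105 in WT M2, 55.3 in Tnfr2-/- M1 and 58.6 in Tnfr2-/- M2. Cdhr5 and Myo1a also belong to the brush border of absorptive cells. Reg4, a marker of deep crypt secretory cells, had late means of 129.7, 42.9, 6.16 and 6.09. The libraries share cultures and days, and these correlations are descriptions.

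**Figure D4:**
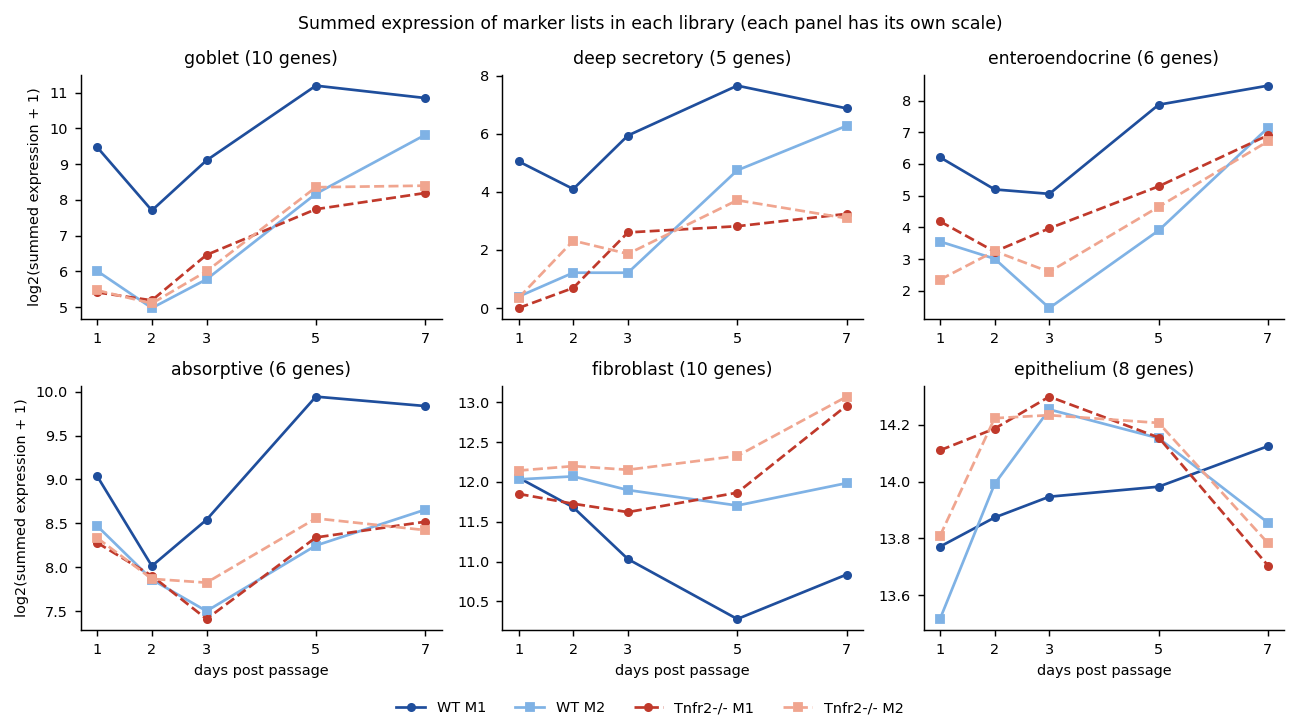
Summed normalised expression of 6 marker lists on a log2(value + 1) scale (vertical axis, own range in each panel) against days post passage, 1 point per library. WT M1 is highest late in the goblet, deep secretory, enteroendocrine and absorptive lists and lowest late in the fibroblast list, and the epithelium list spans 11720 to 20150 over all libraries.

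Markers of other cell types were summed beside the members. The sum of the 10 members at the late days was 1844 to 2344 in WT M1, 287 to 902 in WT M2 and 213 to 336 in the 4 Tnfr2-/- libraries. The 10 fibroblast markers ran the other way, with late sums of 1242 to 1829 in WT M1, 3334 to 4051 in WT M2 and 3728 to 8594 in Tnfr2-/- libraries, and 2 of 10 were called higher in Tnfr2-/- cultures late. The 8 epithelial markers summed to 16180 to 17860 in WT M1, 14820 to 18210 in WT M2 and 13350 to 18900 in Tnfr2-/- libraries, with 0 of 8 called late. Over all days 3 of 8 epithelial and 3 of 10 fibroblast markers were called higher in Tnfr2-/- cultures and 0 lower. Called lower over all days were 2 of 4 tested enteroendocrine, 1 of 3 deep secretory and 1 of 6 absorptive markers, with 0 higher, and of 2 Paneth cell markers 1 was called lower and 1 higher. From early to late days 5 of 8 epithelial markers were called higher in WT, and in Tnfr2-/- cultures 3 were called higher and 2 lower. Fibroblast markers over the same span gave 1 higher and 1 lower of 10 in WT and 3 higher in Tnfr2-/- cultures. Absorptive cell markers (6 genes) gave 913 to 983 in WT M1, 303 to 402 in WT M2 and 323 to 375 in Tnfr2-/- libraries, with 1 of 6 called lower in Tnfr2-/- cultures late. Enteroendocrine markers (6 genes) gave 232.5 to 353, 13.9 to 140.0 and 24.1 to 119, with 0 of 4 tested markers called. The part of these cell types in the goblet cell results was not tested.

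Of the other secretory lists, the deep secretory markers (5 genes) gave 116 to 200 in WT M1, 25.7 to 76.2 in WT M2 and 6.04 to 12.1 in Tnfr2-/- libraries late, with 0 of 3 tested markers called. The 4 Paneth cell markers gave 85.3 to 161, 41.9 to 127 and 140 to 162, and 1 of the 2 tested was called higher in Tnfr2-/- cultures late. The 5 tuft cell markers gave 15.3 to 17.8, 24.9 to 28.2 and 12.7 to 30.7. Immune markers (6 genes) summed to at most 6.19 in any library, and Adgre1, Cd79a and Cd3e were listed at 0 in 19, 18 and 16 of 20. When each library was centred at the mean of its 8 epithelial markers, a setting chosen after the data had been seen, 4 members were called lower over all days (Fcgbp, Muc2, Spdef and Zg16, adjusted p 0.0159 to 0.0384). Spdef was among these members and was tested only because of its WT values. That centring moved the median log2 difference of all genes from -0.03 to -0.19, a shift of -0.16, and 8.88% of all genes were then called lower. At the late days it called 0 members, with 4 at an unadjusted p under 0.05, as were 2611 of the 13539 genes.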

How the data were processed

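Bulk mRNA of 20 colonoid libraries was sequenced as stranded single-end reads. The authors quantified transcripts with kallisto against mm10 and tested them with sleuth, according to the submitters' processing notes. The deposited signal values are TPM divided by a size factor per library. The same table carries, from the authors, p-values and q-values for genotype, means on a natural log scale, and test score and variance columns, none of them used. Repeated lines (781) were dropped and transcripts summed per gene symbol. Genes with a mean of at least 1 (13539) were tested as log2(value + 1) by limma (version 3.58.1, R 4.3.3) with a trend of variance on mean level. The plan allowed for TPM or counts, and no count test was run. A log2 difference understates changes of genes near the pseudocount of 1.

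Genotype over all days had day as a factor. Other comparisons were contrasts of 10 genotype and day groups, of culture and phase groups, or of cultures within a genotype. Libraries with the same replicate number within a genotype were taken as 1 mouse, because the design states 2 mice per genotype. Deviations from group means correlated between days of a mouse at 0.0997 to 0.307 in WT and -0.0511 to 0.08 in Tnfr2-/- cultures. Between genotypes, libraries of the same number correlated at -0.0536 to 0.0922, a range like that within Tnfr2-/- cultures. These values therefore cannot decide whether numbers pair mice across genotypes, or mark a mouse in Tnfr2-/- cultures. No pairing across genotypes was used. The fits were tested on simulated data in which libraries varied independently. That test could not check fits in which libraries of a mouse move together.

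The members and gene lists were chosen with earlier results of these data known. Named were all members, companions called late or highest in their list, and the 8 genes most correlated with Muc2. Promoters came from RefSeq. Alternatives changed the pseudocount, filter, scaling, gene summing, trend, block and libraries used.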

Additional observations from a re-analysis of the deposited data

Results flagged for a closer look

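Among 32 groups of 4 or 6 libraries (each tested member, genotype and phase), 2 held a library far from the rest by a gap test at the 95% level, and chance alone flags about 1 in 20 groups. Both concerned Spink4 in Tnfr2-/- M1. On day 5 it was 46.6, below the other late Tnfr2-/- libraries at 66.9 to 69.0. On day 2 it was listed at 0, while the other early Tnfr2-/- libraries lay between 4.80 and 13.5.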

How the results depend on the processing

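With 2 mice per genotype, most counts of called members depended on single libraries or mice. The paper gives read depth only as an approximate figure per sample. For genotype over all days (2 members called), a pseudocount of 0.1 gave 1, no filter on low values 0, a mean of at least 5 gave 1, means per mouse 0 and centring at the epithelial markers, chosen after the data had been seen, 4. With the replicate block (the mouse, correlated) the count was 0. Of all genes, 1.43% were called lower with that block, 0.00739% with means per mouse and 8.88% with that centring. At the late days (0 called) a pseudocount of 5 gave 1 (Spdef). For late against early days in Tnfr2-/- cultures (4 called), the pseudocount of 0.1 gave 2, no filter 1 and no mean-variance trend 2. For WT M1 against WT M2 (4 called), the same settings gave 2, 0 and 2. The causes were not tested.

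Leaving out 1 library or 1 mouse gave 0 to 7 members for genotype over all days, 0 to 7 at the late days and 0 to 7 at the early days, where 1 (Agr2, higher in Tnfr2-/- cultures) was called without WT M1. It gave 0 to 15 member and day pairs on single days. Each highest value came without WT M2. For late against early days it gave 0 to 6 in WT. The count there was 2 without WT M1 day 5, 3 without WT M1 day 7 and 0 without either Tnfr2-/- mouse. The SE of Muc2 in that comparison was 1.04 with all libraries, 1.34 without Tnfr2-/- M1 and 0.391 without WT M1. For Tnfr2-/- cultures the leave-outs gave 0 to 6 (0 without Tnfr2-/- M2 day 5 or either Tnfr2-/- mouse, the highest without either WT mouse). WT M1 against WT M2 gave 0 to 5, and the 4 single cultures together (11 called) gave 6 to 12, with 6 without Tnfr2-/- M2 day 7 and 7 without Tnfr2-/- M1 day 1. For genotype over all days, leaving out 1 library gave 0 calls for 13 of 20 libraries and 6 without WT M2 day 3. The interaction and the comparison of the Tnfr2-/- cultures gave 0 calls under every setting run.

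Signs turned mostly where libraries or mice were left out. For genotype over all days, leaving out libraries or mice gave Tff3 values of -4.02 to 0.05, Agr2 values of -2.31 to 0.33 and Creb3l1 values of -0.19 to 0.069, and for WT M1 against WT M2 Creb3l1 lay between -0.28 and 0.10. At the early days Muc2 ranged from -3.40 to 0.50, Tff3 from -4.62 to 0.71, Zg16 from -3.67 to 0.22, Agr2 from -2.26 to 1.03, Spink4 from -4.28 to 0.43 and Creb3l1 from -0.046 to 0.15. For the late less the early difference Tff3 ranged from -1.65 to 1.498, Spink4 from -1.42 to 1.36, Fcgbp from -1.32 to 0.21 and Zg16 from -2.38 to 0.060. That difference for Spink4 was also 0.016 with a pseudocount of 0.1, 0.007 with centring at the median and 0.16 with centring at the epithelial markers, where Tff3 was 0.12. The early difference of Creb3l1 was -0.011 after rescaling to a common total and -0.18 after epithelial centring. Centring at the epithelial markers turned Creb3l1 late against early to -0.036 in WT and -0.13 in Tnfr2-/- cultures. That centring shifted the median of all genes by -0.55 and -0.35 there, and in WT it gave 459 genes higher and 6130 lower against 1571 and 1153. For genotype over all days it gave 229 higher and 1202 lower against 611 and 418.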
